A study of Arabidopsis thaliana with 4 samples.

Results

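The array carried, beside its main series of probes whose identifiers begin with A, 384 probes whose identifiers begin with GP, on 4 plates of 96. The annotation lists 1 gene for 34 of these GP probes, several genes for 48 and none for 302. All 34 had an Arabidopsis locus and a value on each of 4 arrays. The probe of ATA20 was left out. The remaining 33 GP probes, which represent 27 of the 5415 loci read by a GP or A probe with 1 listed locus, are described here. Of the 27 loci, 4 were represented by more than 1 GP probe, so that the 33 probes are not independent of each other. A further 23 A probes with a value on all arrays named 21 of the 27 loci, which allows the same transcript to be read by separate probes in the same hybridisation.

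The RNA came from inflorescences of agamous mutants and of wild-type plants of Arabidopsis thaliana. AGAMOUS is a transcription factor needed for stamens, carpels and the arrest of the floral meristem, and its loss puts petals and further sepals in the place of the reproductive organs. Transcripts made in anthers, pollen, carpels or ovules are therefore expected to be scarcer in the mutant, and in whole inflorescences fewer cells of a type and less RNA per cell cannot be told apart. Total RNA of both genotypes was hybridised together to each of 4 2-colour long-oligonucleotide arrays. Per the labels, channel 1 held the mutant RNA for arrays 1 and 3, and channel 2 held it for arrays 2 and 4. The labels give no allele, age or growth condition and no biological source of each array, and the p-values therefore reflect array-to-array spread that may be technical. The values are log2 ratios between the channels, without levels, and end at plus and minus 6.64, a 100-fold difference.

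The arrays did not follow the channel labels. Across the 33 GP probes Pearson's r of the deposited ratios was 0.81 for array 1 against 4, and 0.86 for array 2 against 3. The pairs with the same labelled channel order ran opposite, with r = -0.87 for arrays 1 and 3 and -0.87 for arrays 2 and 4. Over all 26474 probes these 2 coefficients were -0.08 and -0.45, and -0.66 and -0.71 with values at the bounds left out. Probes share the RNA and the array and are not replicates, so the coefficients carry no p. The direction of the ratios is thus not settled by the labels. The signs of arrays 2 and 3 were turned, and a ratio below 0 is called likely lower in agamous, because 10 of 10 probes for 8 anther, pollen, carpel and nectary markers then lay below 0 (means from -4.99 to -0.22). These markers chose the overall sign and are no evidence for it. The nectary marker (SWEET9, mean -4.55) is of a tissue not named above, and no listed petal or sepal marker was measured singly. With the opposite overall sign every "lower" below becomes "higher" and every "higher" becomes "lower".

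Of the 33 GP probes, 11 were lower and 9 higher in agamous in limma's test with a Benjamini-Hochberg adjusted p under 0.05 over all 26441 probes tested. Of all probes tested, 9.1% were lower and 8.18% higher, 17.3% in either direction. The 20 GP probes represent 15 loci, 9 lower and 7 higher, with AT4G29030 in both sets, and 12 loci had no GP probe past the test. All 20 probes past the test had the same sign on all 4 turned arrays, against 2 of the 13 that did not pass. A test of 4 values against 0 favours probes with 1 sign, so that contrast is no further support. Of the 33 GP probes, 22 (66.7%) had 1 sign on all 4 turned arrays, beside 47.8% of the A probes with 1 locus. The 11 lower probes were at least 2-fold lower, and 8 of them at least 8-fold, whereas 2 of the 9 higher probes reached a 2-fold difference. The count of higher GP probes was 0 without array 1, 2 or 4, 4 without array 3 and 5 with a dye term. Over all probes the higher calls also dropped, from 2163 to 325, 65, 508 and 471 without array 1, 2, 3 and 4 and to 1362 with a dye term. Each array centred on its median gave 11 lower and 6 higher, beside 10.2% and 3.38% of all probes (13.6% in either direction). As deposited, 0 of the 33 passed limma's test (0 at an unadjusted p under 0.05), beside 0.234% of all probes, and with signs turned by the labels 0 passed (1 at an unadjusted p under 0.05), beside 0% of all probes.

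The GP loci had a wider spread than the A probes on each array. The interquartile range of the turned ratio was 2.67, 2.48, 3.29 and 2.31 on arrays 1 to 4 for the 33 GP probes. For the 5640 A probes with 1 locus and 4 values it was 0.76, 0.70, 0.58 and 0.61. The GP range was thus wider on 4 of 4 arrays, by 2.02 ± 0.33 on the log2 scale (SD, n = 4), a 4.05-fold difference (exact sign-flip test, two-sided p = 0.13 after rounding, the smallest that 4 arrays allow). With the standard deviation in place of the interquartile range, the difference was 0.999 on the log2 scale. The difference of the medians changed sign between arrays. On arrays 1 to 4 the median of the GP probes lay 0.10, -0.59, -0.08 and -0.15 from that of the A probes, a mean of -0.18 ± 0.29 (SD, n = 4, exact sign-flip test, two-sided p = 0.375). That difference was -0.04 without array 2 and 0.16 with the ratios as deposited. With means in place of medians it was -1.14 ± 0.22 (SD, n = 4), below 0 on 4 of 4 arrays (exact sign-flip test, two-sided p = 0.13 after rounding, the smallest that 4 arrays allow).

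The extra width lay on the lower side. At least 2-fold lower mean ratios were found for 33.3% of the 33 GP probes and 7.32% of the A probes with 1 locus, and at least 2-fold higher ones for 6.06% and 5.25%. The lower quartile of the mean ratios was -2.08 for the GP probes and -0.08 for the A probes, and the upper quartiles were 0.46 and 0.42. The 23 A probes of the same loci were broader than A probes at large as well, with an interquartile range of 1.06 against 0.50 and at least 2-fold lower ratios for 17.4%. Of these 23 A probes, 5 were lower and 1 was higher by limma's test (26.1% in either direction), beside 433 lower and 525 higher of the 5640 A probes with 1 locus (17.0%). A broader range was thus also seen with other probes for the same loci, though it was smaller with them and rested on few probes. The lower quartile of the 23, -0.71, lay between A024421_01 (mean -0.90) and A025831_01 (mean -0.51), neither of which passed limma's test. The median SD over the 4 arrays was 0.36 for the 33 GP probes, 0.29 for the 23 A probes of their loci and 0.30 for the A probes with 1 locus.

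**Figure D1:**
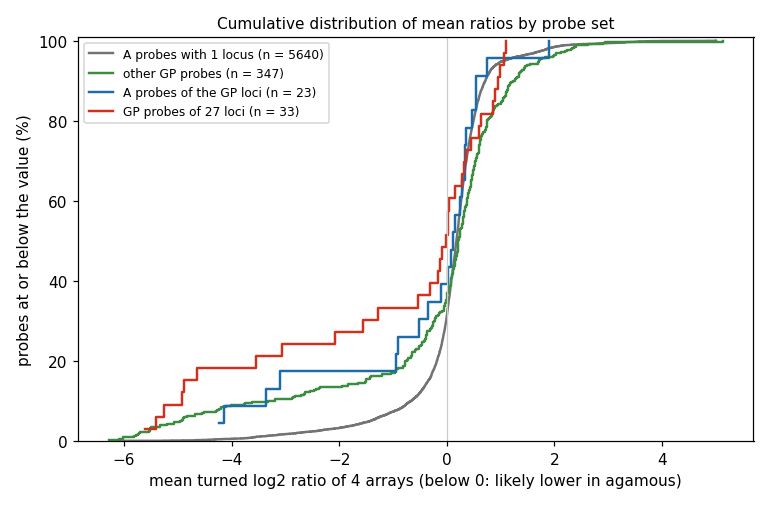
Cumulative share of probes (y axis, %) against the mean turned log2 ratio of 4 arrays (x axis, below 0 likely lower in agamous), with 1 stepped line per probe set. The 33 GP probes leave the line of the 5640 A probes below 0, where 33.3% of them are at least 2-fold lower against 7.32%, and these lines lie closer together above 0.

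Among the lower loci, the GP probe of GILT had the largest difference. GILT is named after the gamma-interferon-responsive lysosomal thiol reductase of animals, an enzyme that reduces disulphide bonds in lysosomes. Its probe GP007D5 had turned ratios of -4.88, -6.13, -5.89 and -5.51 on arrays 1 to 4, a mean of -5.60 ± 0.54 (SD, n = 4) and a 48.6-fold difference (adjusted p = 0.00100, limma). All 4 arrays lay far below 0, and none was at the bound.

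AT1G66850 followed with 2 GP probes. GP008A3 had -4.71, -5.93, -5.89 and -5.12, a mean of -5.41 ± 0.60 (SD, n = 4, adjusted p = 0.00122, limma), and GP008G9 had -4.70, -5.58, -5.59 and -5.18, a mean of -5.26 ± 0.42 (SD, n = 4, adjusted p = 0.000897). The 2 probes lay close together on every array, and both were least negative on array 1. AT1G06260 likewise had 2 GP probes, GP008B8 at -3.91, -5.21, -5.71 and -4.71 and GP008B9 at -3.60, -4.78, -6.22 and -5.09. Their means were -4.88 ± 0.77 and -4.92 ± 1.08 (SD, n = 4 each, adjusted p = 0.00226 and 0.00488, limma), and here too array 1 gave the smallest size and array 3 the largest.

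AT3G49540 had -4.67, -4.71, -5.15 and -4.00 with probe GP007A3, a mean of -4.63 ± 0.48 (SD, n = 4, adjusted p = 0.00113, limma). AT3G61160 had -2.91, -3.73, -3.89 and -3.67 with GP007D11, a mean of -3.55 ± 0.44 (SD, n = 4, adjusted p = 0.00157). AT3G62710 had -3.64, -4.16, -2.81 and -1.65 with GP007D8, a mean of -3.06 ± 1.09 (SD, n = 4, adjusted p = 0.0184). The arrays agreed closely for the first 2 of these loci, whereas the AT3G62710 ratio on array 4 was the smallest of its set. It no longer passed without array 1, 2 or 3 (adjusted p of 0.0694, 0.0745 and 0.0616, limma) or without moderation of the spread (0.0801).

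The remaining lower probes had smaller differences. AT5G21070 had -2.15, -2.05, -2.12 and -2.02 with GP008C3, a mean of -2.08 ± 0.06 (SD, n = 4), which is 4.24-fold and the smallest spread of the 11 lower probes (adjusted p = 0.00107, limma). AT3G04360 had -1.52, -1.70, -1.97 and -1.01 with GP007F11, a mean of -1.55 ± 0.41 (SD, n = 4, adjusted p = 0.0110), and missed the threshold without array 2 (adjusted p = 0.0709) and without moderation (0.0567). GP008F10, a probe of AT4G29030, had -0.52, -1.99, -1.45 and -1.19, a mean of -1.29 ± 0.61 (SD, n = 4, adjusted p = 0.0380), and missed it without array 2, 3 or 4 (adjusted p = 0.120, 0.108 and 0.0917) and without moderation (0.111). The other 8 lower probes kept an adjusted p under 0.05 in each of the 11 alternatives computed for single probes in the turned reading.

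**Figure D2:**
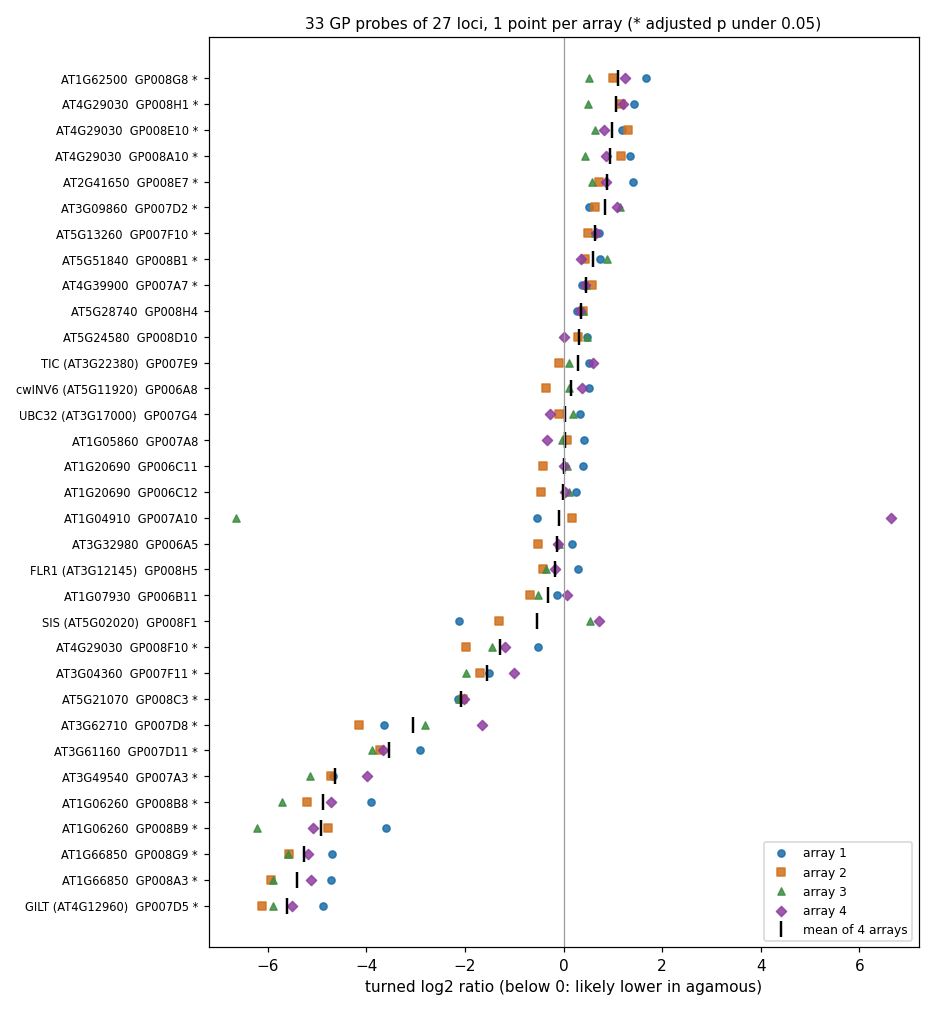
Turned log2 ratio (x axis) of each of the 33 GP probes (rows, sorted by mean), with 1 point per array and a bar at the mean of 4 arrays. Means of the 11 lower probes run from -5.60 to -1.29 and those of the 9 higher probes from 0.46 to 1.11. The points of AT1G04910 span the whole scale from -6.64 to 6.64, where both end values were 6.64 as deposited.

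The 9 higher probes stood for 7 loci and had means from 0.46 to 1.11, or 1.37-fold to 2.15-fold, with adjusted p from 0.0202 to 0.0453 (limma). AT1G62500 had 1.67, 0.99, 0.52 and 1.24 with GP008G8, a mean of 1.11 ± 0.48 (SD, n = 4, adjusted p = 0.0340). AT2G41650 had 1.40, 0.71, 0.58 and 0.85 with GP008E7, a mean of 0.89 ± 0.36 (SD, n = 4, adjusted p = 0.0340). AT3G09860 had 0.52, 0.64, 1.15 and 1.09 with GP007D2, a mean of 0.85 ± 0.32 (SD, n = 4, adjusted p = 0.0304). Arrays 1 and 3 exchanged places among them, with array 1 highest for AT1G62500 and AT2G41650 and lowest for AT3G09860.

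AT5G13260 had close values on the 4 arrays, at 0.72, 0.51, 0.63 and 0.65 with GP007F10, a mean of 0.63 ± 0.09 (SD, n = 4, adjusted p = 0.0202, limma). The other 3 higher probes belonged to AT4G29030 and are given below. The 2 calls nearest the threshold were AT4G39900, with 0.38, 0.57, 0.44 and 0.43 (GP007A7, mean 0.46 ± 0.08, SD, n = 4, adjusted p = 0.0400), and AT5G51840, with 0.73, 0.43, 0.88 and 0.35 (GP008B1, mean 0.60 ± 0.25, SD, n = 4, adjusted p = 0.0453). Just outside it lay AT5G28740, with 0.28, 0.40, 0.39 and 0.33 (GP008H4, mean 0.35 ± 0.05, SD, n = 4, adjusted p = 0.0646), and AT5G24580, with 0.48, 0.30, 0.48 and 0.01 (GP008D10, mean 0.32 ± 0.22, SD, n = 4, adjusted p = 0.147). Each of the 9 higher probes lost its call in at least 1 alternative. The median of all probes in the turned reading was 0.15, so that 0.15 of each higher mean is shared with the array as a whole. After centring, AT4G39900 (adjusted p = 0.0988), AT3G09860 (0.0534) and AT5G51840 (0.0920) no longer passed limma's test.

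Of the 6 loci with a gene symbol, GILT passed the test and the other 5 did not. FLR1, a leucine-rich repeat protein known as a binding partner of AGAMOUS, had 0.29, -0.42, -0.36 and -0.17, a mean of -0.17 ± 0.32 (SD, n = 4, adjusted p = 0.473, limma). TIC (TIME FOR COFFEE), a regulator of the circadian clock, had 0.52, -0.10, 0.12 and 0.59, a mean of 0.28 ± 0.33 (SD, n = 4, adjusted p = 0.261). Neither had the same sign on all arrays. UBC32, a ubiquitin-conjugating enzyme of protein degradation at the endoplasmic reticulum, had 0.33, -0.10, 0.20 and -0.28, a mean of 0.04 ± 0.28 (SD, n = 4, adjusted p = 0.877), and its mean turned negative after centring. cwINV6, named as a cell wall invertase and also as a fructan exohydrolase, had 0.51, -0.37, 0.11 and 0.37, a mean of 0.16 ± 0.39 (SD, n = 4, adjusted p = 0.549). Grouped by words in the reference's gene names, GILT belonged to the oxidation group and UBC32 into protein turnover, and the other 25 loci carried no word of the functional groups.

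SIS (Salt Induced Serine rich), named for its induction by salt, had lower ratios on arrays 1 and 2 than on arrays 3 and 4. Its probe GP008F1 had turned ratios of -2.11 and -1.32 on arrays 1 and 2 but 0.53 and 0.73 on arrays 3 and 4, a mean of -0.54 ± 1.39 (SD, n = 4, adjusted p = 0.518, limma). Its A probes did the same, A024421_01 with -2.49, -1.43, -0.29 and 0.60 and A005851_01 with -0.72, -0.10, 0.44 and 0.86. On all 3 probes arrays 1 and 2 thus lay below arrays 3 and 4. With signs turned by the channel labels, GP008F1 had a mean of -1.17 and the same sign on all arrays (unadjusted p = 0.0164, adjusted p = 1.0, limma), the only one of the 33 GP probes under an unadjusted p of 0.05 in that reading.

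AT1G04910 had the widest range of turned ratios in the set. Its probe GP007A10 had -0.54 and 0.16 on arrays 1 and 2, -6.64 on array 3 and 6.64 on array 4. Its mean of -0.09 thus rests on 2 values at opposite bounds. Both were 6.64 as deposited (mean of 4 arrays 3.15), and only the turned sign of array 3 set them apart. These were the 2 values at a bound among the 132 of the 33 GP probes (1.52%, against 360 of 22560 for the A probes with 1 locus). A002777_01, the A probe of this locus, had 0.12, 0.06, 0.28 and -0.14. The remaining loci without a call were AT3G32980 (-0.14), AT1G05860 (0.03), AT1G07930 (-0.32) and AT1G20690, whose 2 GP probes had mean ratios of -0.01 and 0.01.

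The GP and A probes of the same locus were compared within each array for 21 loci. Their mean ratios had the same sign at 15 of 21 loci and, across loci, Pearson's r = 0.54 and Spearman's rho = 0.51, as a description over loci measured on the same arrays. As deposited, 14 of 21 had the same sign and r was 0.03 (rho 0.43), and with signs turned by the labels 11 of 21 did and r was 0.18 (rho 0.39). The difference passed limma's test at 4 of 21 loci, with adjustment over the 280 loci with 2 probes, of which 7.5% passed. For the 258 loci with 2 A probes, 6.2% differed, r was 0.05 and rho 0.25, and 165 of 258 had the same sign. The interquartile range of the first probe's mean was 2.68 at the 21 loci and 0.43 at the 258 loci. Since r depends on that range, the coefficients of the 2 sets do not show which set agrees better. The share that differed among 2 A probes was 2.32, 0.769, 4.65 and 0.775% without array 1, 2, 3 and 4, and with values at the bounds missing r was 0.20 and rho 0.34. At an unadjusted p under 0.05 (limma), 10 of the 21 and 45 of the 258 loci differed. The median size of the difference was 0.39 at the 21 loci and 0.25 at the 258 loci. The GP ratio was the larger in size at 16 of 21 loci.

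At 4 lower loci with both probes, the A probe was strongly lower as well. The A probe of AT1G66850, A000244_01, had -3.98, -4.37, -5.16 and -3.44, a mean of -4.24 ± 0.72 (SD, n = 4, adjusted p = 0.00273, limma). GP minus A was -1.18, with GP008A3 (95% interval -1.79 to -0.56, adjusted p = 0.0632, limma), and the difference passed with values at the bounds missing from the fit (adjusted p = 0.0248). A024550_01 of AT1G06260 had -3.32, -5.07, -4.50 and -3.67, a mean of -4.14 ± 0.79 (SD, n = 4, adjusted p = 0.00363), with GP minus A at -0.74 (95% interval -1.33 to -0.16, adjusted p = 0.174). A009044_01 of AT3G62710 had -3.11, -3.01, -3.52 and -2.79, a mean of -3.11 ± 0.31 (SD, n = 4, adjusted p = 0.00128), against -3.06 for the GP probe (95% interval of the difference -1.11 to 1.20). These 3 loci were many-fold lower with either probe. AT3G04360 was lower with both, but A012042_01 had -2.81, -3.43, -4.08 and -3.10, a mean of -3.36 ± 0.54, and the GP probe lay 1.80 above it (95% interval 1.30 to 2.30, adjusted p = 0.0112, limma). Without array 2 or array 4 that difference had an adjusted p of 0.0738 and 0.0599.

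At the other 3 loci past the test of the difference, the A probes did not share the large decrease of the GP probe. For AT3G49540, A004992_01 had -1.20, -0.91, -0.80 and -0.83, a mean of -0.94 ± 0.18 (SD, n = 4, adjusted p = 0.0118, limma), while the second A probe, A010110_01, was higher, with 0.52, 0.65, 0.33 and 0.65, a mean of 0.54 ± 0.15 (SD, n = 4, adjusted p = 0.0371). GP minus A for the first of them was -3.70 (95% interval -4.31 to -3.08, adjusted p = 0.00526, limma). The 3 probes named for AT3G49540 thus had 3 separate levels of ratio on every array, and no direction can be given for the locus.

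For AT5G21070, A005533_01 had 0.53, 0.60, 0.66 and 0.07, a mean of 0.47 ± 0.27 (SD, n = 4, adjusted p = 0.0849, limma), and GP minus A was -2.55 (95% interval -2.99 to -2.11, adjusted p = 0.00526). The GP and A values did not overlap, and the difference was present on 4 of 4 arrays. For GILT, A020405_01 had 0.20, 0.37 and 0.38 on arrays 1 to 3 and 6.64, at the bound, on array 4, so that the mean difference of -7.50 (adjusted p = 0.0422, limma) includes that bound. Without array 4 the difference was -5.95 (adjusted p = 0.0140), and with values at the bounds missing also -5.95 (adjusted p = 0.000689). It missed the threshold without array 1, 2 or 3 (adjusted p = 0.0922, 0.198 and 0.0972). A013167_01, an A probe whose annotation lists GILT among 4 genes, had 0.79, 1.28, 0.17 and 0.56. The large decrease named for GILT was thus read by the GP probe and by neither A probe.

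**Figure D3:**
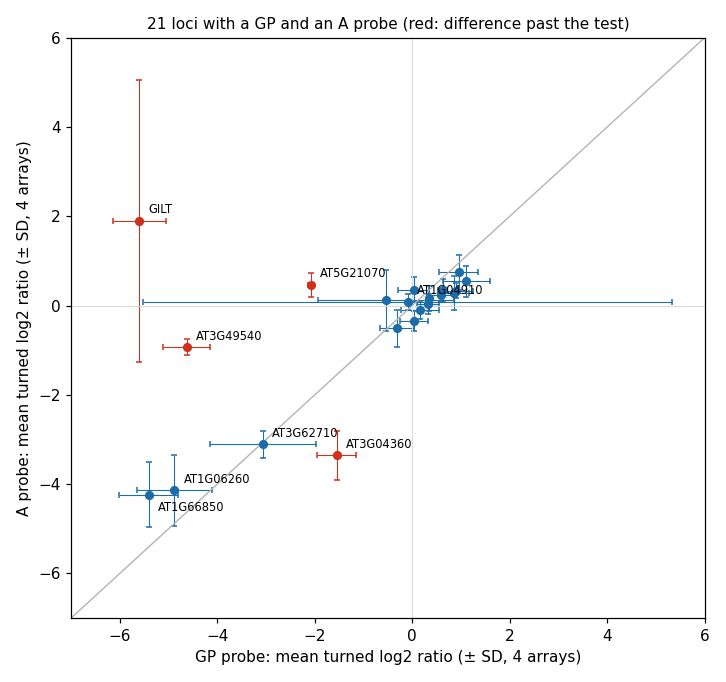
Mean turned log2 ratio of the A probe (y axis) against that of the GP probe (x axis) for 21 loci, with the SD over 4 arrays as bars, the line of equality in grey, and loci whose difference passed the test in red. AT1G66850 and AT1G06260 lie at the lower left, above the line (GP minus A -1.18 and -0.74), and AT3G62710 lies near it. GILT, AT3G49540 and AT5G21070 lie far above the line. AT3G04360, also in red, lies below the line, with means of -1.55 (GP) and -3.36 (A).

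Among the loci with a higher GP probe, 6 had an A probe, and since these loci were chosen for a high GP ratio, a smaller A ratio is no test. All 6 A means were above 0, from 0.24 to 0.74, where A probes with 1 locus had a median of 0.18. None of the 6 passed limma's test (adjusted p from 0.0559 to 0.296), beside 17.0% of A probes with 1 locus in either direction (525 of 5640 higher). All 6 lay below the mean of the first GP probe, but at AT4G29030 the mean of its 4 GP probes, 0.43, lay below the A probe's 0.74. A003257_01 of AT1G62500 had 0.57, 0.71, 0.04 and 0.84, a mean of 0.54 ± 0.35 (SD, n = 4), with GP minus A at 0.57 (95% interval 0.08 to 1.05, adjusted p = 0.195, limma). At AT5G13260, AT3G09860, AT2G41650 and AT5G51840 GP minus A was 0.29, 0.57, 0.56 and 0.36, and none of these differences passed. None of the 9 A probes of the 8 loci without a call passed either. At AT1G07930 and cwINV6, for example, GP minus A was 0.20 (95% interval -0.45 to 0.84) and 0.27 (-0.35 to 0.89).

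AT4G29030 was the locus with most GP probes, 4 in all, and they did not share a direction. GP008A10 had 1.35, 1.17, 0.42 and 0.86, a mean of 0.95 ± 0.40 (SD, n = 4, adjusted p = 0.0350, limma). GP008E10 had 1.19, 1.31, 0.65 and 0.81, a mean of 0.99 ± 0.31 (SD, n = 4, adjusted p = 0.0211), and GP008H1 had 1.43, 1.16, 0.50 and 1.20, a mean of 1.07 ± 0.40 (SD, n = 4, adjusted p = 0.0268). These 3 probes moved together, all lowest on array 3, and so did the A probe A014985_01, with 0.89, 1.05, 0.16 and 0.89, a mean of 0.74 ± 0.40 (SD, n = 4, adjusted p = 0.0559). The difference between GP008A10 and the A probe was 0.21 (95% interval -0.16 to 0.57). The other probe, GP008F10, was lower on every array, as given above, and did not overlap with the other 4 probes of the locus on any array.

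**Figure D4:**
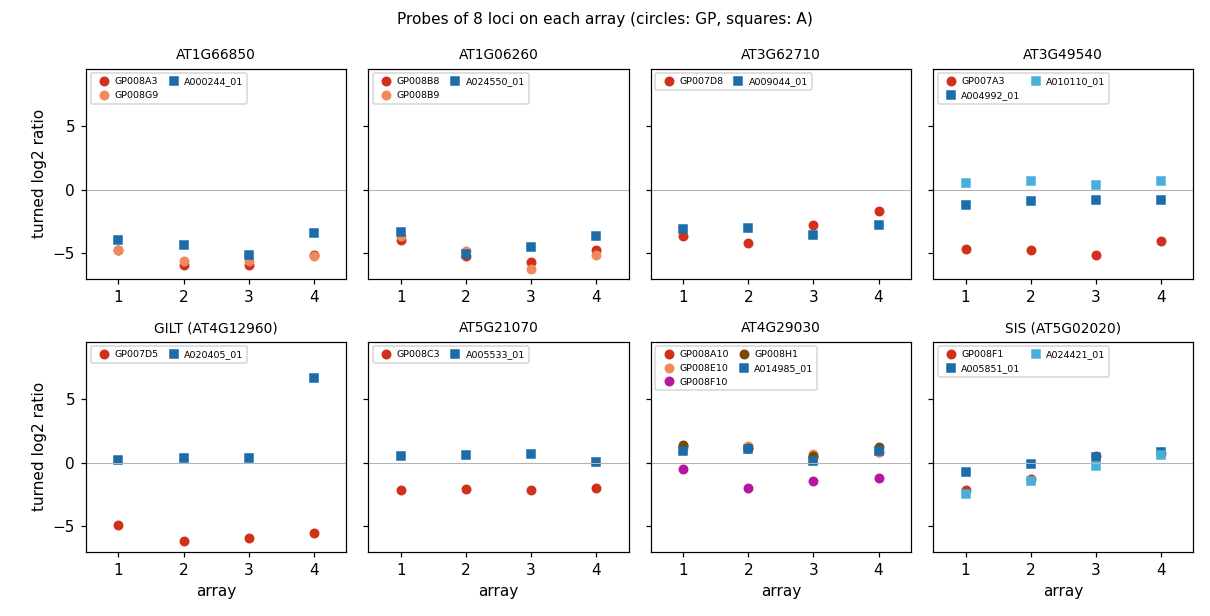
Turned log2 ratio (y axis) on arrays 1 to 4 (x axis) of each probe with 1 listed gene for 8 loci, circles for GP probes and squares for A probes. The probes of AT1G66850, AT1G06260 and AT3G62710 all lie below 0, with both GP probes of AT1G66850 below its A probe on every array. The probes of AT3G49540, GILT and AT5G21070 are separate. GP008F10 stands below the other 4 probes of AT4G29030, and the probes of SIS are lower on arrays 1 and 2 than on arrays 3 and 4.

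The 6 loci with no A probe of their own were AT1G20690, AT3G61160, AT3G32980, AT4G39900, TIC and FLR1. Of these, AT3G61160 was lower and AT4G39900 higher, and neither call had a second probe to be set beside. Some A probes listed a GP locus among several genes, and their signal may come in part from the other genes listed. For TIC there were 2 such probes, with means of 0.16 and -0.03, and for AT1G20690 1, A023823_01, with 6.64 on array 1 and 0.07, 0.26 and 0.86 on the others. For the strongly lower loci such shared probes had other ratios than the probe of the locus. A009431_01, which lists AT1G06260 among 3 genes, had a mean of -0.45 ± 0.15, A023188_01, which lists AT3G04360, -0.37 ± 0.32, and A005956_01, which lists AT3G62710 among 4 genes, 0.34 ± 0.31 (SD, n = 4 each).

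The called probes of the described loci lay on 2 of the 4 plates. Plate GP007 held 12 of the 33 probes, 5 lower and 3 higher, and plate GP008 held 16, 6 lower and 6 higher. The 5 on plate GP006 (AT3G32980, cwINV6, AT1G07930 and both probes of AT1G20690) had no call, and plate GP005 held none of the 33. Over all GP probes with 4 values every plate held calls, 9 lower and 15 higher on GP005, 5 and 14 on GP006, 28 and 11 on GP007 and 32 and 16 on GP008. Their mean ratios had an interquartile range of 1.13, 0.51, 2.21 and 3.45 on plates GP005 to GP008. At least 2-fold lower means numbered 7 of 94, 2 of 95, 28 of 96 and 34 of 96, and at least 2-fold higher means numbered 31, 8, 6 and 12, most of them on GP005. The 347 GP probes outside the described set had an interquartile range of mean ratios of 1.04, between that of the 33 probes (2.54) and that of the A probes with 1 locus (0.50), and 31.4% of them passed limma's test, 62 lower and 47 higher.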

How the data were processed

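The authors deposited 1 log2 ratio of the channels for every feature and array, normalized as in a cited publication, per the labels. The steps, the numerator and the centring are not given in the sources used here, and the log2 scale was read from the bounds. Signal intensities were not used here. The number of arrays limits the precision. Probes were named through the platform annotation and the RefSeq table of TAIR10.1. Since no build is named for the probes, no coordinates are given.

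Ratios of arrays 2 and 3 were turned. Every GP and A probe with at least 3 of 4 values (26441) was tested against 0, two-sided, with limma 3.58.1 (R 4.3.3), and p-values were adjusted by Benjamini-Hochberg with a threshold of 0.05. When empty features were added to the fit, 18 of 415 passed (4.34%). Probe differences were tested by limma over 280 loci, with the first GP and A probe by identifier, or the first 2 A probes. Spreads were compared by exact sign-flip tests over arrays in Python 3.11.15. The fit was also run on simulated independent noise with known shifts, which did not test the turning of signs, the bounds or effects shared within an array.

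Members, lists and tests were chosen with earlier results of these data known, and the signs came from the same arrays, which adjusted p-values do not cover. The probes named are the up to 15 largest differences past the test in each direction with 1 sign on all arrays, loci with a symbol, the 8 nearest and 8 farthest GP and A pairs, and 2 probes on either side of the threshold. Other probes are named as exceptions, chosen after their values were seen. The gene groups used RefSeq names, as descriptions were not used here. Of 24 marker genes, 8 were measured singly on 10 probes, 6 of which were lower. Alternatives were other signs, a dye term, centring, scaling, quantile normalization, bounds as missing, other filters, spread estimates and thresholds, loci averaged, a random block, and each array left out.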

Additional observations from a re-analysis of the deposited data

Results flagged for a closer look

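Of 91 sets of 4 array values checked for 1 array far from the others, 5 were flagged, and chance flags about 1 in 20. None was a GP probe or a GP and A difference. A020405_01 of GILT (mean 1.90) had 6.64 on array 4 and 0.20 to 0.38 on the others. A017737_01, which lists AT1G66850 among 3 genes (mean 2.16), had 6.64 on array 4 and 0.35 to 1.08 on the others. A023823_01, which lists AT1G20690 among 4 genes (mean 1.96), had 6.64 on array 1. A016241_01 of cwINV6 (AT5G11920, mean -0.11) had -0.39 on array 1 against -0.03 to -0.01 on the others. A009431_01, which lists AT1G06260 among 3 genes (mean -0.45), had -0.23 on array 1 against -0.55 to -0.50 on the others. The part of array 4 or array 1 in these values was not tested.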

How the results depend on the processing

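The count of 11 lower GP probes fell to 0 as deposited and to 0 with signs turned by the labels, and stayed within 1.5 times in the other alternatives (8 to 10 with 1 array left out). With GP and A probes of a locus averaged it was 9, where AT1G66850 and AT1G06260 were counted once per GP probe. In that alternative GILT lost its call (mean -1.85, adjusted p = 0.119, limma), and the mean of AT4G29030 was 0.49 (adjusted p = 0.0993). Over all probes the lower calls were 1406, 1034, 1475 and 1630 without array 1, 2, 3 and 4, against 2406 with all arrays. The count of 9 higher probes was 0 and 0 in the 2 readings with other signs, 5 with a dye term, 3 without moderation, 4 with probes of a locus averaged, 0 at an adjusted p of 0.01, and 0 to 4 with 1 array left out. Over all probes the higher calls were 732 without moderation, 2147 with loci averaged and 114 at an adjusted p of 0.01. The 4 differing pairs became 0 and 0 in the same 2 readings and 2 to 3 with 1 array left out. Pairs with the same sign numbered 14 as deposited, 11 with signs turned by the labels and 14 to 16 with 1 array left out. The log2 ratio of interquartile ranges (2.02) was 0.999 by standard deviations, 1.85 to 2.09 with 1 array left out and 1.88 with 1 GP probe per locus. The median difference (-0.18) was -1.14 by means, 0.16 as deposited and -0.27 to -0.04 with 1 array left out. The mean of GP007A10 (AT1G04910) changed sign without array 1 (0.05) and without array 3 (2.09), within -2.34 to 2.09 with 1 array left out. That of UBC32 (GP007G4, AT3G17000) changed sign after centring (-0.10) and without array 1 (-0.063) or 3 (-0.019), within -0.063 to 0.14. Neither passed the test. Of 318 values of named probes, 59 lost and 2 gained a call, those 2 for AT5G28740. The cause was not tested. The mean of all GP probes of a locus, and 1 GP probe per locus, were chosen after seeing the data. Each ratio already pairs the genotypes within an array, and a random block (array 1 with 2, array 3 with 4) gave 11 lower and 10 higher. Over all 26441 probes that block gave 3008 lower and 3963 higher, against 2406 and 2163 without it.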
